A study of Bubalus bubalis with 6 samples.

Results

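The sequences described here are array probes near the distal ends of the autosomes as numbered in the probe names, measured in sperm DNA of water buffalo (Bubalus bubalis). These chromosome numbers and ends are those of the unnamed build behind the probes. They are not those of the buffalo assembly used below to check gene order. A probe was included where its name places it on chromosomes 1 to 29, all 6 arrays measured its input DNA well above background, and it starts within 3 Mb of the largest probe end coordinate of its chromosome. This rule used position and input signal and no immunoprecipitated signal. It gave 16998 probes, 15.3% of the 110916 autosomal probes that pass the same input filter, on an array of 177440 non-control probes. The 29 windows cover 3.43% of the length spanned by the probes. Before the input filter they held 30046 probes, of which 56.6% passed, against 63.9% of the other autosomal probes.

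Semen was studied from 3 bulls labelled high-fertile (numbers 2, 3 and 5) and from 3 labelled subfertile (numbers 1, 4 and 5), with 1 array per bull and all DNA taken from cryopreserved ejaculates. The labels give no breed, age or criterion of fertility. Sheared DNA was enriched with an antibody against 5-methylcytosine (methylated DNA immunoprecipitation), and the enriched (IP) DNA in Cy5 was hybridised together with input DNA of that bull in Cy3. With the dyes always this way round, an effect of the dye on a probe cannot be told apart from enrichment. Whether such an effect is equal in all bulls was not tested.

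Methylation of the cytosine in a CpG dinucleotide is the main DNA methylation mark of mammals, and mature sperm carry it over most of the genome outside CpG islands. Subtelomeric DNA, the stretch that adjoins the telomere repeats, tends to be rich in genes, GC and recombination in mammals, and male recombination is often frequent there. Cattle autosomes are acrocentric and numbered from the centromeric end. River buffalo carries the same chromosome arms, some of them joined at their centromeres, so the ends away from the centromere are free ends in both species.

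Since no source used here names the build behind the probe coordinates, the position was checked by gene order. Of the 320 gene names whose probes all lie in the windows, 253 were found among placed protein-coding genes of the buffalo assembly NDDB_SH_1. Of these, 247 (97.6%) lay within 100 genes of a chromosome end there, against 18.3% of the other names and 23.5% of all placed genes. These counts take the nearest end, so they place the named loci near an end and do not tell a distal from a proximal one. Chromosomes 7, 8 and 9 hold only 4, 9 and 8 of the probes, and the other 26 chromosomes hold from 61 (chromosome 1) to 1449 (chromosome 12).

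Each probe is a 60-base oligonucleotide without a stated strand. Among distal probes with IP signal well above background on all 6 arrays, the 3 with the highest and the 2 with the lowest mean level are printed first, with each CG in capitals, because they show that a high and a low level occur at similar CpG counts. The 3 highest lie at chr22:61265737-61265796, chr25:43004946-43005005 and chr29:51951438-51951497, and the 2 lowest at chr12:83238902-83238961 and chr14:80151577-80151636.
High probe of chromosome 22: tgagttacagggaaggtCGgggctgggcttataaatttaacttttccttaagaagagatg
High probe of chromosome 25: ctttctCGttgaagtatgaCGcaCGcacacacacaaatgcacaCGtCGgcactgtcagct
High probe of chromosome 29: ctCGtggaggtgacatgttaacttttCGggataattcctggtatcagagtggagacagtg
Low probe of chromosome 12: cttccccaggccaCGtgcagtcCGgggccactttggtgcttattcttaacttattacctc
Low probe of chromosome 14: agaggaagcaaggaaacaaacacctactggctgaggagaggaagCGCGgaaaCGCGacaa
The 3 high probes hold 1, 5 and 2 CpGs and the 2 low probes hold 2 and 4. None of the 5 carries a gene name.

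The 4 probes that follow were chosen by the unadjusted p of the difference between high-fertile and subfertile bulls, 2 in each direction. They have the smallest p among probes of the same kind whose groups did not overlap, apart from those already taken by level. They lie at chr2:140237411-140237470, chr22:61645804-61645863, chr12:83333393-83333452 and chr5:125192306-125192365. Probes that overlap one already taken were also passed over. The high probe of chromosome 29 was left out in this way, with a smaller unadjusted p (0.0221) than the chromosome 5 probe (0.0326, limma).
Chromosome 2, higher in high-fertile bulls: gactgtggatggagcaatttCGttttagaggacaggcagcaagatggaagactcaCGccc
Chromosome 22, higher in high-fertile bulls: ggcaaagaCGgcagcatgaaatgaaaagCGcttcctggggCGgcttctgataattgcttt
Chromosome 12, lower in high-fertile bulls: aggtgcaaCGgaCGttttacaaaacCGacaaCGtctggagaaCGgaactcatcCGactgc
Chromosome 5, lower in high-fertile bulls: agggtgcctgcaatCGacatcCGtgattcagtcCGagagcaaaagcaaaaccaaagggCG
These hold 2, 3, 6 and 4 CpGs and also carry no gene name.

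Over all tested distal probes the sequence content was close to that elsewhere. The mean number of CpGs in a probe was 2.68 in the distal windows and 2.85 elsewhere, and the GC content was 50.8% and 50.6%. A probe without any CpG made up 4.30% of the distal and 4.19% of the other probes, and probes with 5 or more CpGs made up 8.85% and 12.5%. Gene names were given to 459 distal probes, 2.70% of them, against 7.62% elsewhere. Probes were printed in clusters: the 16945 tested distal probes (53 more had a non-uniformity flag) form 2746 runs with gaps of at most 500 bp, with a median of 4 probes and at most 123, at chr23:52612687-52615586. A sequence shared with another distal probe occurred for 154 of them, and 17 had a copy outside the windows. Neighbouring probes are therefore not independent measurements, and n below is always the number of bulls.

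Facts of the whole series bear on the values in this way. Input DNA was well above background at 69.0% to 95.5% of all probes. IP DNA was well above background at 56.9% of the distal probes in high-fertile bull 2, the lowest share, and at 99.9% in subfertile bull 1, the highest, and on all 6 arrays at 53.3% of distal and 54.2% of other probes. By the scan dates in the headers, high-fertile bulls 2 and 3 and subfertile bull 4 form a first session. High-fertile bull 5 and subfertile bulls 1 and 5 have later dates, counted as 1 session, and arrays correlate by session. High-fertile bull 5 and subfertile bull 5 share a slide and the other bulls share another, so slide coincides in part with session. Of the germ-cell genes listed to check for somatic DNA, only DDX4 had a tested probe, at a relative level of -0.01. The 3 leukocyte genes with tested probes lay between -0.10 and 0.11 and the 5 epithelial genes between -0.23 and 0.73, and no expression was measured.

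The first comparison was the level of the distal probes against the rest of the autosomes within each bull. The level is log2(IP/input), and a relative level is that value minus the array's median over the tested autosomal probes. Distal probes had higher ratios than other probes in 5 of 6 bulls, by 0.16 ± 0.12 (SD, n = 6) on the log2 scale. The difference of medians was 0.25 in high-fertile bull 2, -0.08 in high-fertile bull 3 and 0.25 in high-fertile bull 5. It was 0.14, 0.16 and 0.22 in subfertile bulls 1, 4 and 5. High-fertile bull 3 alone lay below 0, and the ranges of the high-fertile and subfertile bulls overlapped.

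The share of distal probes above the array's median was 63.8%, 45.4% and 64.0% in high-fertile bulls 2, 3 and 5 and 60.3%, 60.7% and 61.5% in subfertile bulls 1, 4 and 5. For the other probes it ranged from 47.5% (high-fertile bull 5) to 50.8% (high-fertile bull 3). Distal probes above the median in all 6 bulls numbered 3016, or 17.8%, where the background over all tested autosomal probes was 11.5%. Those below it in all 6 bulls numbered 1486, or 8.77%, against a background of 12.8%. The interquartile range of the distal probes within a bull was 0.60 (subfertile bull 1) to 0.84 (subfertile bull 5), against 0.58 to 0.82 for other probes.

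High-fertile bull 3 differed less from the other bulls when the comparison was made with neighbouring DNA. Against the 12854 probes that lie 3 to 9 Mb from the same ends, a set added after the data were seen, the distal probes were higher in 6 of 6 bulls, by 0.16 ± 0.04 (SD, n = 6). The values were 0.21, 0.14 and 0.16 in high-fertile bulls 2, 3 and 5 and 0.09, 0.17 and 0.18 in subfertile bulls 1, 4 and 5. Against the 4171 probes within 3 Mb of the proximal ends they were also higher in 6 of 6 bulls, by 0.13 ± 0.05 (SD, n = 6), with 0.07 in subfertile bull 1 as the lowest and 0.19 in high-fertile bull 2 as the highest.

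**Figure D1:**
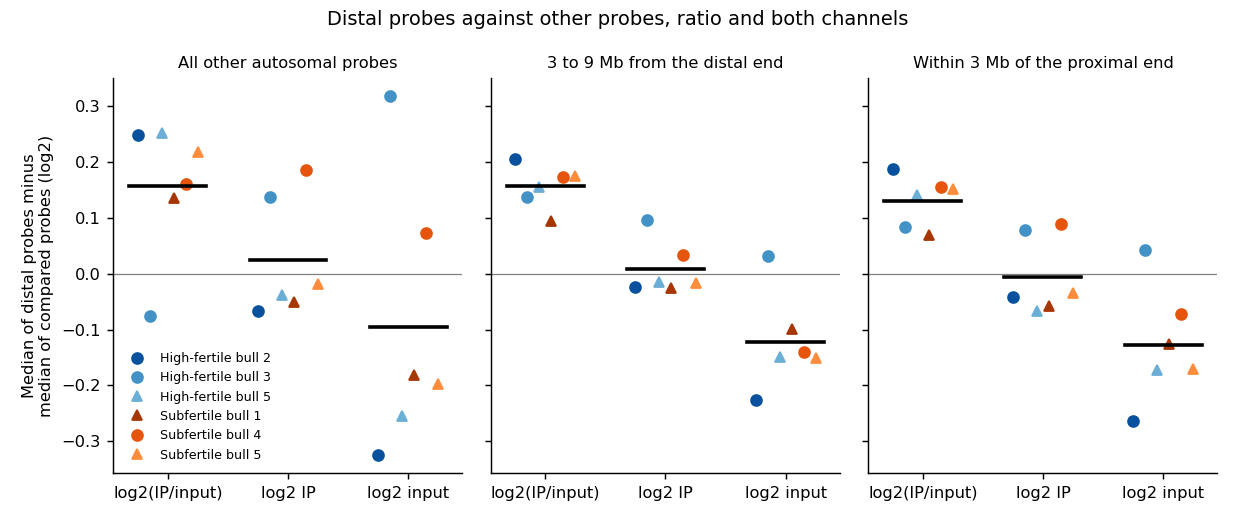
Median of the distal probes minus the median of the compared probes (y axis, log2 units) for the ratio, the IP channel and the input channel, with 1 point per bull (blue high-fertile, orange subfertile, circles first scan session, triangles later dates) and a bar at the mean of 6 bulls. In the middle and right panels all 6 ratios lie above 0, while 5 of 6 input differences lie below 0 and the IP differences lie on both sides of 0.

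The ratio has an IP and an input channel, and both were compared in the same way. Against all other probes, the IP signal of the distal probes differed by 0.02 ± 0.11 (SD, n = 6) and was higher in 2 of 6 bulls. Their input signal differed by -0.09 ± 0.24 (SD, n = 6) and was lower in 4 of 6 bulls. The higher ratio thus went with a lower input signal in 4 of the 5 bulls that showed it, and only in subfertile bull 4 with a higher IP signal (0.19) beside a higher input signal (0.07).

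Against the probes 3 to 9 Mb from the end, the input signal differed by -0.23, 0.03 and -0.15 in high-fertile bulls 2, 3 and 5 and by -0.10, -0.14 and -0.15 in subfertile bulls 1, 4 and 5, a mean of -0.12 ± 0.09 (SD, n = 6). The IP difference was 0.01 ± 0.05 (SD, n = 6). In high-fertile bull 3 the IP signal was 0.10 higher. The input signal also decided which probes were included, so these channel values are a description of the probes that passed the filter. The part that amount of input DNA, hybridisation or DNA methylation has in the lower input signal was not tested.

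Distance from the end was followed in steps of 500 kb. The mean over 6 bulls of the median relative level was 0.12 ± 0.11 (SD) in the step nearest the end, 0.19 ± 0.10 in the next, and 0.07 ± 0.11, 0.16 ± 0.12, 0.10 ± 0.12 and 0.13 ± 0.09 in the 4 steps up to 3 Mb. Just beyond the limit, between 3 and 3.5 Mb, it was 0.01 ± 0.11. All 6 bulls were lower in that step than in the last step inside. The values there were 0.05, -0.21 and 0.12 in high-fertile bulls 2, 3 and 5. They were 0.03, 0.01 and 0.05 in subfertile bulls 1, 4 and 5. From 3.5 to 4 Mb the mean rose again to 0.07 ± 0.10, with 5 of 6 bulls above 0, the level of the third step inside. After that it was 0.03 ± 0.13 and then -0.11 ± 0.09, so the fall was not confined to the 3 Mb limit. By windows of 3 Mb, the level was 0.13 ± 0.11 in the distal window, 0.01 ± 0.11 in the next and -0.06 ± 0.08 in the one from 6 to 9 Mb. Mean CpG counts in these 3 windows were 2.68, 2.78 and 2.85. The input signal relative to the tested autosomal median was -0.08 ± 0.21, 0.03 ± 0.18 and 0.06 ± 0.11 in them, and the IP signal 0.02 ± 0.09, 0.03 ± 0.08 and -0.01 ± 0.05.

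**Figure D2:**
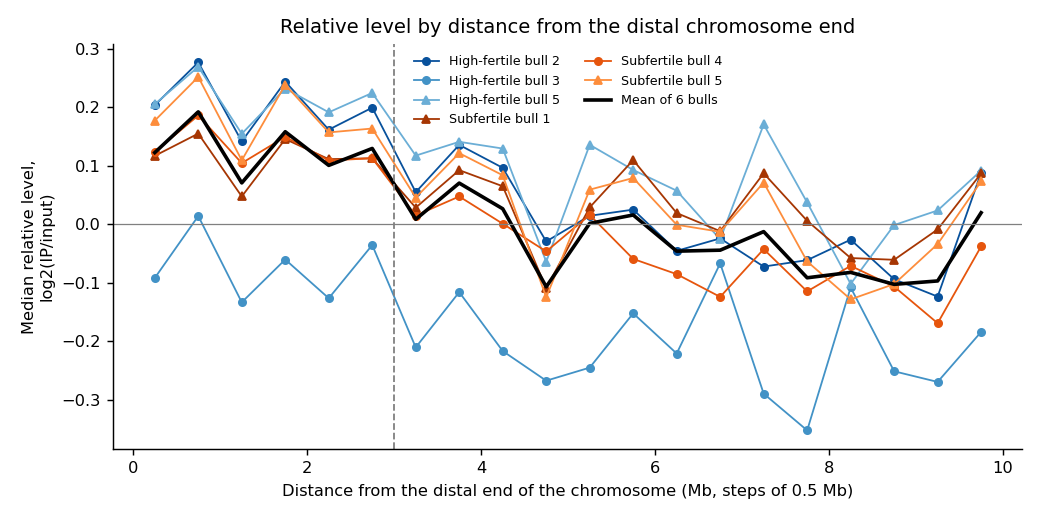
Median relative level (y axis, log2(IP/input) minus the array's median over tested autosomal probes) by distance from the distal chromosome end (x axis, steps of 0.5 Mb), with a line per bull and a black line for the mean of 6 bulls; the dashed line marks 3 Mb. The mean is 0.19 in the step from 0.5 to 1 Mb, 0.01 just beyond 3 Mb and 0.07 in the step after that. The line of high-fertile bull 3 lies below the others in every step up to 6.5 Mb.

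CpG content ordered the level among the distal probes as among the others. Distal probes without a CpG had a relative level of 0.21 ± 0.11 (SD, n = 6), those with 3 CpGs 0.12 ± 0.11, those with 5 CpGs 0.04 ± 0.16, and those with 7 or more -0.13 ± 0.16. Distal probes were higher than other probes in each of the 8 CpG classes, in 5 of 6 bulls each time. The difference ran from 0.09 ± 0.12 (67 distal probes with 7 or more CpGs) to 0.18 ± 0.15 (295 with 6), and it was 0.12 ± 0.19 for the 729 probes that hold no CpG. High-fertile bull 3 was below 0 in every class. Averaged over CpG classes weighted by the distal probes the difference was 0.15 ± 0.13 (SD, n = 6), and within classes of GC content 0.16 ± 0.12. A fragment in this assay is longer than a probe, so the CpGs around a probe also count and were not analysed here.

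**Figure D3:**
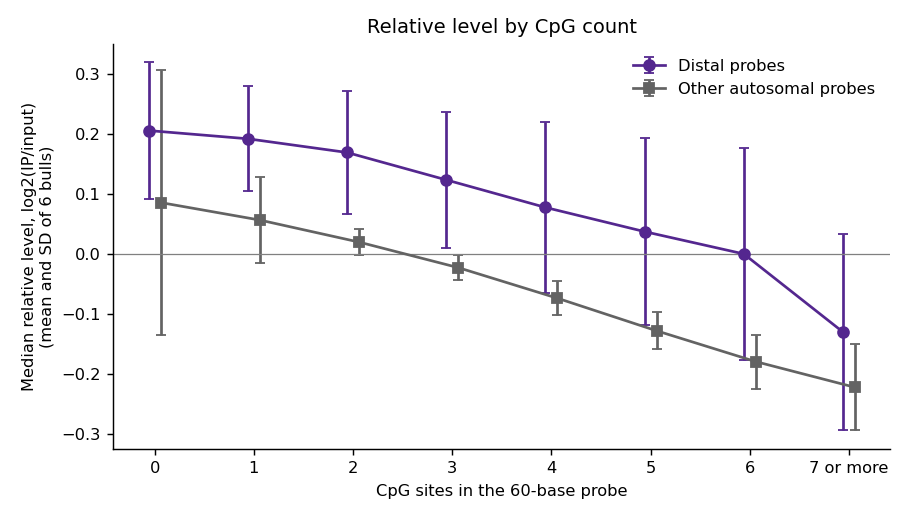
Median relative level (y axis, log2(IP/input), mean and SD of 6 bulls) by the number of CpG sites in the probe (x axis) for distal probes (circles) and other autosomal probes (squares). Both lines fall with the CpG count, from 0.21 to -0.13 for distal and from 0.09 to -0.22 for other probes, with the distal line above the other at each count.

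Unnamed probes made up 16488 of the 16945 tested distal probes, so by their number alone the difference given above is largely theirs. The 16488 unnamed distal probes exceeded the unnamed probes elsewhere by 0.16 ± 0.12 (SD, n = 6, higher in 5 of 6 bulls). For the 457 tested distal probes with a gene name the difference from named probes elsewhere was 0.06 ± 0.22 (SD, n = 6, higher in 5 of 6 bulls), smaller than its spread over bulls. Its values were 0.04, -0.33 and 0.30 in high-fertile bulls 2, 3 and 5 and 0.15, 0.00 and 0.21 in subfertile bulls 1, 4 and 5. Whether named and unnamed probes differ in this respect was not tested.

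The distal windows were then tested chromosome by chromosome. Each autosome was divided into windows of 3 Mb counted back from its distal end, and the mean relative level of each of the 645 windows with at least 20 tested probes was compared with 0 over the 6 bulls (limma, Benjamini-Hochberg adjustment over all windows, adjusted p under 0.05). Of all windows, 5.43% were called higher and 9.77% lower. Of the 26 distal windows, 8 were called higher (chromosomes 29, 11, 22, 5, 3, 25, 17 and 26) and 1 lower (chromosome 27). Their median relative level was 0.07, and that of all windows was -0.02.

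The distal window of chromosome 29 was the highest, with a relative level of 0.24 (SE 0.05, adjusted p = 0.0171, higher in 6 of 6 bulls, limma). Its 656 probes averaged 0.26, 0.02 and 0.35 in high-fertile bulls 2, 3 and 5 and 0.27, 0.24 and 0.32 in subfertile bulls 1, 4 and 5. High-fertile bull 3 was near 0 and the other 5 bulls lay close together. The distal window of chromosome 11 followed with 0.23 (SE 0.05, adjusted p = 0.0176, 6 of 6 bulls, limma). Its 1147 probes had 0.29, 0.03 and 0.33 in the high-fertile and 0.24, 0.19 and 0.33 in the subfertile bulls.

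Chromosome 22, whose distal window holds GATA2 and SEC61A1, reached 0.22 (SE 0.05, adjusted p = 0.0216, limma), with 0.28, 0.00 and 0.32 in high-fertile bulls 2, 3 and 5 and 0.25, 0.17 and 0.31 in subfertile bulls 1, 4 and 5. Chromosome 5 also reached 0.22 (SE 0.05, adjusted p = 0.0181, limma), with 0.26, 0.05 and 0.33 in the high-fertile and 0.19, 0.17 and 0.32 in the subfertile bulls. In both, high-fertile bull 3 was again the lowest and the fertility groups overlapped. On chromosome 22 the IP signal of the window was 0.22 ± 0.13 (SD, n = 6) above the tested autosomal median and above it in 6 of 6 bulls, and on chromosomes 29 and 11 it was 0.36 ± 0.15 and 0.17 ± 0.12, also in 6 of 6. On chromosome 5 the IP signal was -0.09 ± 0.07 and the input signal -0.28 ± 0.19. The 4 highest windows thus differed in the channel that carried the ratio.

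**Figure D4:**
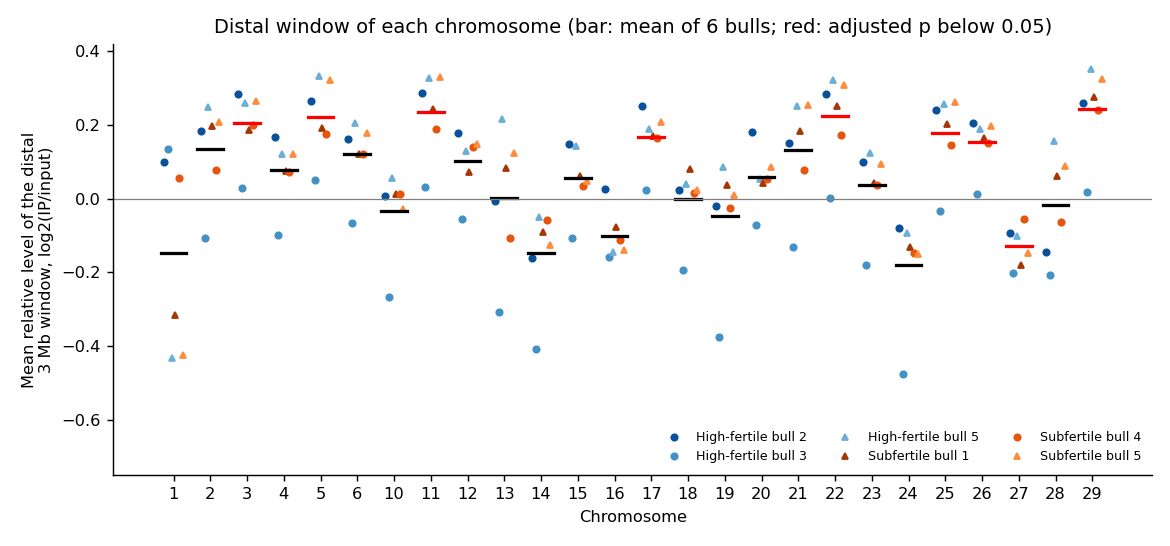
Mean relative level of the distal 3 Mb window (y axis, log2(IP/input)) of each chromosome (x axis), with a point per bull (blue high-fertile, orange subfertile, circles first scan session, triangles later dates) and a bar at the mean of 6 bulls, red where the adjusted p of limma is below 0.05. The highest bars are at chromosomes 29 (0.24) and 11 (0.23) and the lowest at chromosome 24 (-0.18); the points of high-fertile bull 3 lie lowest on most chromosomes.

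The lowest distal windows were those of chromosomes 24, 14, 1 and 27. Chromosome 24 had a relative level of -0.18 (SE 0.06, adjusted p = 0.0614, limma), with -0.08, -0.48 and -0.09 in high-fertile bulls 2, 3 and 5 and -0.13, -0.15 and -0.15 in subfertile bulls 1, 4 and 5. Chromosome 14 had -0.15 (SE 0.05, adjusted p = 0.0828, limma), with -0.16, -0.41 and -0.05 in the high-fertile and -0.09, -0.06 and -0.13 in the subfertile bulls. All 6 bulls were below 0 in both, and neither passed the test. Chromosome 27 did pass it, at -0.13 (SE 0.04, adjusted p = 0.0436, limma), with -0.09, -0.20 and -0.10 in the high-fertile and -0.18, -0.05 and -0.15 in the subfertile bulls.

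The window of chromosome 1 parted by scan session. Its 61 probes had 0.10, 0.14 and 0.06 in the bulls of the first session (high-fertile 2 and 3, subfertile 4) and -0.43, -0.31 and -0.42 in those of the later dates (high-fertile 5, subfertile 1 and 5). The mean of -0.15 (SE 0.09, adjusted p = 0.298, limma) therefore describes neither set. All 4 of these windows turned positive without the input filter, at 0.06, 0.15, 0.11 and 0.06 for chromosomes 24, 14, 1 and 27.

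These calls rest on few arrays. Without high-fertile bull 5, subfertile bull 1 or subfertile bull 5, none of the 26 distal windows was called higher. Of all windows, 1.71%, 0.93% and 0.31% were called higher in these fits. Without high-fertile bull 2 the number of distal windows was 2, without subfertile bull 4 it was 4, and without high-fertile bull 3 it was 13. The shares of all windows were 4.19%, 2.95% and 8.22%. With normexp background correction none was called, within the first session alone none, within the later dates 17, and with session means 11. The shares of all windows called higher were 0.155%, 0.465%, 21.4% and 12.9% in that order. The call of chromosome 27 was lost without each bull in turn except high-fertile bull 3. The directions of the 4 highest windows held in each of these fits. Arrays of 1 session correlate, so p-values over 6 bulls treat as independent what may not be.

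Set beside the rest of its own chromosome, the distal part had the higher median in 20, 7 and 22 of 26 chromosomes in high-fertile bulls 2, 3 and 5 and in 21, 20 and 21 in subfertile bulls 1, 4 and 5. It was higher in all 6 bulls on 6 chromosomes and in no bull on 2. Set beside the adjoining 3 Mb, it was higher on 19, 17 and 17 chromosomes in the high-fertile and 16, 17 and 16 in the subfertile bulls, in all 6 bulls on 10 chromosomes and in none on 2. The elevation was thus not shared by every chromosome. Across the 26 windows the relative level correlated with the number of tested probes in the window (Pearson r = 0.71, Spearman rho = 0.73) and with the mean CpG count of its probes (r = -0.43, rho = -0.53). This is a description over windows of the same 6 arrays.

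The level varied widely within a window. Means over runs of at least 3 probes had a median SD of 0.34 within a distal window. On chromosome 25, whose window was called higher, 129 runs ranged from -1.10 to 1.03, and 73.6% lay above 0. On chromosome 24, the lowest window, 25 runs ranged from -1.19 to 0.43, and 36.0% lay above 0. Of the 2746 distal runs, 654 (23.8%) were above the array's median in all 6 bulls, against 11.6% of runs elsewhere, and 263 (9.58%) were below it in all 6, against 14.4%.

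The most extreme runs of at least 10 probes, chosen after the values were seen, show this range. A run of 11 probes at chr11:110010935-110011035 averaged 1.16 ± 0.61 (SD, n = 6), with 0.81, 0.40 and 1.75 in high-fertile bulls 2, 3 and 5 and 1.35, 0.74 and 1.92 in subfertile bulls 1, 4 and 5. A run of 14 probes at chr25:43004861-43005017, which contains the high probe of chromosome 25 printed above, averaged 1.03 ± 0.45, with 1.04, 0.53 and 1.499 in the high-fertile and 0.59, 0.91 and 1.61 in the subfertile bulls. Both were above 0 in all 6 bulls. On the same chromosome, a run of 14 probes at chr25:42711480-42711596 averaged -0.86 ± 0.33, with -1.11, -1.38 and -0.73 in the high-fertile and -0.48, -0.72 and -0.72 in the subfertile bulls. The lowest run, 10 probes at chr24:63427572-63427710, averaged -1.02 ± 0.29 and was below 0 in all 6 bulls. A run of 12 probes at chr19:64374745-64375007 with the name PRKCA, a protein kinase C isoform, averaged -0.85 ± 0.21. The largest run, 123 probes on chromosome 23, averaged 0.13 ± 0.10 and was above 0 in all 6 bulls.

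The single probes printed above had these levels. The high probe of chromosome 22 had a relative level of 1.89 ± 0.55 (SD, n = 6), with 1.39, 1.14 and 2.20 in high-fertile bulls 2, 3 and 5 and 2.01, 1.94 and 2.66 in subfertile bulls 1, 4 and 5. The high probe of chromosome 25 had 1.86 ± 0.52, with 2.03, 1.11 and 2.31 in the high-fertile and 1.32, 2.02 and 2.37 in the subfertile bulls. Every bull was above 1 at both. The high probe of chromosome 29 had 1.71 ± 1.57, but 4.75 in subfertile bull 4 and 0.25 to 1.60 in the other 5 bulls, so 1 array carried its mean. The low probe of chromosome 14 had -1.32 ± 0.28, with -1.33, -1.78 and -1.15 in the high-fertile and -1.13, -1.02 and -1.50 in the subfertile bulls. The low probe of chromosome 12 had -1.33 ± 0.39, and all 6 bulls were below 0 at both.

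Gene regions were formed where a gene name was shared by 3 or more tested probes. The 736 regions on the array include 52 whose probes all lie in the distal windows. In the level test 3.67% of all regions were called higher and 8.15% lower (limma, adjusted p under 0.05). Of the 52 distal regions, 2 were called higher (GATA2 and DYNC1H1) and 2 lower (EIF3B and GRPEL1). The median relative level was 0.06 in the distal and -0.03 in the other regions, and 4 distal regions (7.69%) were above 0 in all 6 bulls, against 6.87% of the others. Those below 0 in all 6 bulls were 2 (3.85%), against 13.6%.

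GATA2, a zinc-finger transcription factor of blood stem cells and other lineages, was the highest. Its 5 probes at chr22:61187301-61197292 averaged 0.46 (SE 0.10, adjusted p = 0.0224, limma), with 0.78, 0.20 and 0.56 in high-fertile bulls 2, 3 and 5 and 0.55, 0.17 and 0.52 in subfertile bulls 1, 4 and 5. The IP signal was well above background at all 30 spots. The probes differ in level: the highest had 0.9999 ± 0.44 (SD, n = 6) and the lowest 0.17 ± 0.37. Both are shown with the CGs in capitals, to set a probe with 2 CpGs beside one with 4 from the same gene.
GATA2 probe at chr22:61197233-61197292, the highest: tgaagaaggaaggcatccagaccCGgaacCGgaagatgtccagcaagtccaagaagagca
GATA2 probe at chr22:61187301-61187360, the lowest: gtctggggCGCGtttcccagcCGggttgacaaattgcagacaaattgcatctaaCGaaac
The call of GATA2 was lost without high-fertile bulls 2 or 5 or subfertile bulls 1 or 5 (adjusted p = 0.05002 to 0.0826, limma) and without the input filter (adjusted p = 0.0884).

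DYNC1H1, the heavy chain of cytoplasmic dynein that moves cargo along microtubules, averaged 0.43 (SE 0.11, adjusted p = 0.0371, limma) over 11 probes at chr21:66952741-66996787. It had 0.54, -0.03 and 0.68 in the high-fertile and 0.49, 0.25 and 0.64 in the subfertile bulls. High-fertile bull 3 was the only bull below 0. Its probes ranged from -0.35 ± 0.26 to 0.82 ± 0.50 (SD, n = 6). The call was lost without each bull in turn except high-fertile bull 3 (adjusted p = 0.0527 to 0.124, limma) and without the input filter (adjusted p = 0.167).

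EIF3B, a core subunit of the translation initiation factor that loads the small ribosomal subunit, was the lowest region. Its 3 probes at chr25:42775853-42776442 averaged -0.85 (SE 0.11, adjusted p = 0.00766, limma), with -1.12, -1.12 and -1.08 in high-fertile bulls 2, 3 and 5 and -0.62, -0.55 and -0.64 in subfertile bulls 1, 4 and 5. All 6 bulls were below 0 and the high-fertile bulls were the 3 lowest. IP signal was well above background at 13 of 18 spots. The 3 probes are printed because the lowest gene region rests on them alone.
EIF3B probe at chr25:42775853-42775912: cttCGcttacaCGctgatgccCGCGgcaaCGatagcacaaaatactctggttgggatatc
EIF3B probe at chr25:42775958-42776017: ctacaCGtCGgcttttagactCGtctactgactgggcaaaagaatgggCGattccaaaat
EIF3B probe at chr25:42776383-42776442: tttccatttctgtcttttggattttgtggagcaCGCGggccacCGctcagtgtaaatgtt
They hold 5, 4 and 3 CpGs and had -1.13 ± 0.76, -0.99 ± 0.35 and -0.44 ± 0.31 (SD, n = 6). The call held without each bull in turn (adjusted p = 0.0124 to 0.0417, limma) and was lost without the input filter (-0.32, adjusted p = 0.259).

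GRPEL1, which releases nucleotide from the mitochondrial HSP70 chaperone, averaged -0.54 (SE 0.09, adjusted p = 0.0113, limma) over 4 probes at chr6:121597796-121612106. It had -0.65, -0.75 and -0.54 in the high-fertile and -0.30, -0.63 and -0.34 in the subfertile bulls, all below 0. Its first and last probes had -0.95 ± 0.55 and -0.91 ± 0.79 (SD, n = 6), and the 2 between them -0.06 ± 0.41 and -0.23 ± 0.33. The first probe holds no CpG. These outer probes parted by scan session in opposite directions. The first probe ran from -0.78 to -0.38 in the first session and from -1.77 to -0.92 on the later dates. The last probe ran from -1.81 to -1.18 and from -0.25 to -0.18 in that order. At the 2 inner probes the sessions overlapped. The region mean thus averages over opposite session differences. The call held without each bull in turn (adjusted p = 0.0149 to 0.0443, limma) and not without the input filter (-0.45, adjusted p = 0.114).

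Other distal regions lay high without passing the test. EPHA2, an ephrin receptor kinase, had 0.03, -0.12 and 0.85 in high-fertile bulls 2, 3 and 5 and 0.87, 0.19 and 0.83 in subfertile bulls 1, 4 and 5, a mean of 0.44 (SE 0.16, adjusted p = 0.0909, limma). The 3 bulls of the later dates were the high ones. TTC15, a subunit of a vesicle tethering complex on chromosome 8, had 0.17, -0.33 and 0.91 in the high-fertile and 0.76, 0.26 and 0.77 in the subfertile bulls, again with the later dates high. PI4KA, a phosphatidylinositol kinase, averaged 0.39 ± 0.32 (SD, n = 6), CDH20, a cadherin, 0.37 ± 0.31, and KCNJ16, an inward rectifier potassium channel, 0.28 ± 0.19. SEC61A1, the pore of the endoplasmic reticulum translocon and a neighbour of GATA2, had 0.51, 0.23 and 0.30 in the high-fertile and 0.21, 0.20 and 0.26 in the subfertile bulls, above 0 in all 6 (0.28, SE 0.08, adjusted p = 0.0562, limma).

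Among the low regions, FTSJ2, a mitochondrial RNA methyltransferase that lies beside EIF3B at chr25:42845393-42850894, had -0.11, -0.84 and 0.01 in high-fertile bulls 2, 3 and 5 and -0.22, -0.75 and -0.20 in subfertile bulls 1, 4 and 5. EHMT1, a histone H3 lysine methyltransferase, had -0.02, -0.74 and -0.49 in the high-fertile and -0.44, 0.05 and -0.39 in the subfertile bulls. Neither passed the test (adjusted p = 0.104 and 0.0846, limma). MED22, a Mediator subunit, averaged -0.35 ± 0.52 (SD, n = 6), PATZ1, a zinc-finger regulator, -0.33 ± 0.34, RCC2, a regulator of mitosis and cell spreading, -0.29 ± 0.31, and OXSM, an enzyme of mitochondrial fatty acid synthesis, -0.25 ± 0.23. RCC2 turned to 0.04 without the input filter.

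**Figure D5:**
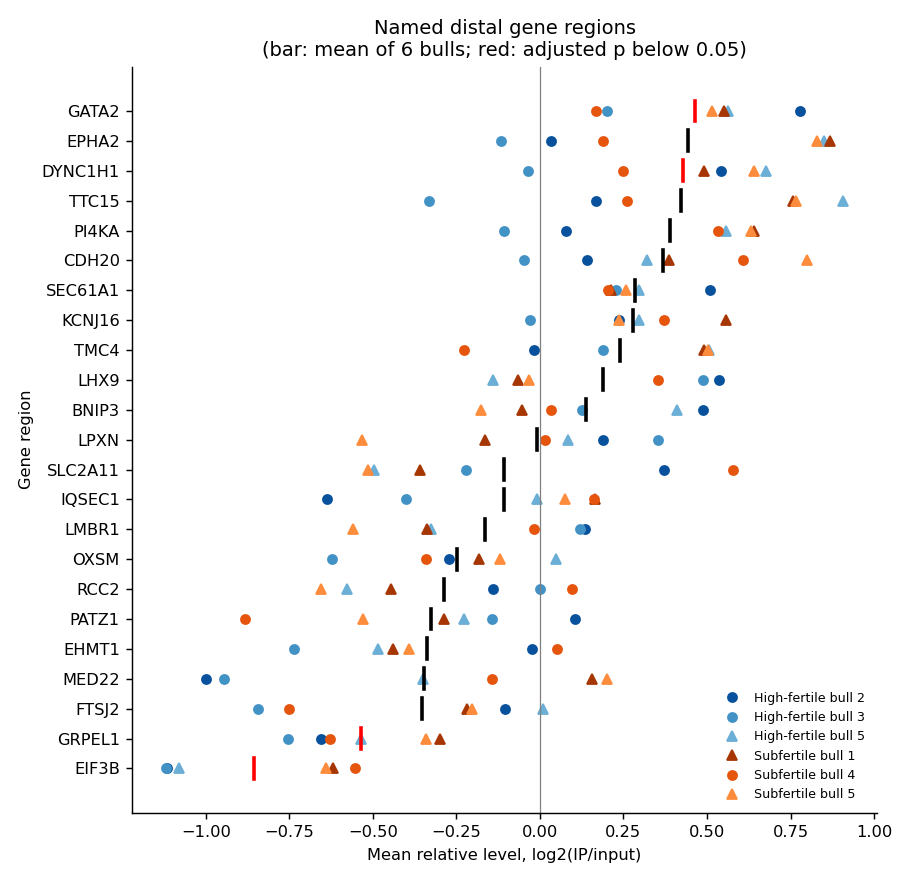
Mean relative level (x axis, log2(IP/input)) of the distal gene regions named in the text (y axis), except TFPT and PRPF31, which were named afterwards. Each bull has a point (blue high-fertile, orange subfertile, circles first scan session, triangles later dates). A bar lies at the mean of 6 bulls, red where the adjusted p of limma is below 0.05. The bars run from 0.46 (GATA2) to -0.85 (EIF3B), and at EIF3B the 3 high-fertile bulls lie below the 3 subfertile bulls.

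Gene names with any tested distal probe were sorted into groups by the start of their symbols. Over all 215 such names the median relative level was 0.01, and 111 were above 0, against 0.02 and 2104 of 4033 names elsewhere. Of 10 ion channel and transporter genes, 7 were above 0 (median 0.19; 0.04 for 174 such genes elsewhere), among them KCNJ16. All 3 adhesion and matrix genes (CDH20, EPHA2 and the collagen COL4A1) were above 0, with a median of 0.37 against 0.15 elsewhere. Of 7 ubiquitin and proteasome genes, 2 were above 0 (median -0.35, against 0.00 elsewhere). Of the 11 names in the translation list, 3 were above 0 (median -0.17, against -0.06). That list includes the kinases RPS6KA2 and RPS6KA5, which are not ribosomal proteins. Of the 5 names in the developmental list, 3 were above 0 (median 0.03, against -0.06), and 1 of them, ENPP2, is a lysophospholipase caught by its first letters.

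The remaining groups showed similar counts on both sides. Zinc-finger genes were above 0 in 3 of 6 cases (median 0.04, against 0.04), signalling genes in 4 of 6 (0.07, against 0.08) and chromatin genes in 2 of 4 (-0.16, against 0.06). No gene of the flagellum and sperm list had a tested probe in the windows, and 21 had one elsewhere. Regions of at least 3 probes in these groups numbered 13, of which GATA2 was called higher and EIF3B lower. The groups were not tested as lists.

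The study's own comparison was high-fertile against subfertile bulls, tested with limma on log2(IP/input) centred on the median of the non-control probes of each array. No distal probe differed (0 of 16945; 0% of the 110686 tested probes were called, smallest adjusted p = 0.99998), nor did a distal window (0 of 26, 0% of 645) or a distal gene region (0 of 52, 0% of 736). At an unadjusted p under 0.05 there were 429 distal probes, 2.53%, against 1.84% of all tested probes. Groups did not overlap at 482 distal probes with higher high-fertile bulls (2.84%, against 2.58%) and at 646 with lower ones (3.81%, against 3.20%). The median difference was -0.13 over distal and -0.09 over all tested probes, and the median SE of a distal probe was 0.36. Within the first session the median distal difference was -0.10 and within the later dates 0.09, so its direction differed by session. Over all tested probes the medians were -0.04 in the first session and 0.04 on the later dates. On the later dates the high-fertile group is a single bull, and in the first session the subfertile group is.

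The 4 probes printed for this comparison had these array-centred values. At the chromosome 2 probe, high-fertile bulls 2, 3 and 5 had 1.12, 1.12 and 0.95 and subfertile bulls 1, 4 and 5 had 0.01, 0.32 and -0.40, a difference of 1.09 (SE 0.31). At the chromosome 22 probe the high-fertile bulls had 0.84, 1.21 and 0.62 and the subfertile bulls -0.33, 0.35 and -0.48, a difference of 1.04 (SE 0.34). At the chromosome 12 probe the high-fertile bulls had -0.44, -0.90 and -0.15 and the subfertile bulls 0.75, 0.75 and 0.41, a difference of -1.14 (SE 0.32). The chromosome 5 probe had 0.10, -0.31 and 0.00 against 0.62, 0.85 and 0.51, a difference of -0.73 (SE 0.30). The groups are apart at each, which the choice of these probes requires, and the adjusted p of limma was 0.99998 for all 4.

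No distal window separated the groups (0 of 26, against 0.465% of all windows). The window of chromosome 14 had -0.49, -0.67 and -0.06 in the high-fertile and -0.11, -0.32 and -0.23 in the subfertile bulls, a difference of -0.19 (SE 0.18, adjusted p = 0.998, limma). That of chromosome 19 had -0.35, -0.63 and 0.07 against 0.02, -0.29 and -0.09, a difference of -0.18 (SE 0.18). High-fertile bull 5 was the highest or near the highest in both, so the groups overlapped. The window of chromosome 1 alone had a positive difference, 0.09 (SE 0.18), with -0.23, -0.12 and -0.45 against -0.33, -0.20 and -0.53. With a median SE of 0.18, differences of this size were not detectable with 3 bulls a group. High-fertile bulls 2 and 3 were scanned with subfertile bull 4 alone, and on the later dates alone the differences were 0.10, 0.11 and -0.02 on chromosomes 14, 19 and 1, each of opposite sign.

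Among the gene regions, 2 of 52 had an unadjusted p under 0.05 (limma), against 0.815% of all regions. Groups did not overlap at 4 (7.69%, against 2.99%): EIF3B, CDH20, TFPT and LPXN, of which TFPT was named after its values were seen. At TFPT the gap between the groups was narrow, with 0.24 in high-fertile bull 5 and 0.28 in subfertile bull 1. TFPT differed by -0.49 (SE 0.24) at chr18:63542724-63543008. The probes of PRPF31, also named afterwards, cover nearly the same stretch, chr18:63542735-63543014. PRPF31 differed by -0.13 (SE 0.25) with overlapping groups. MED22 had -1.33, -1.20 and -0.36 in high-fertile bulls 2, 3 and 5 and 0.14, -0.40 and 0.10 in subfertile bulls 1, 4 and 5, a difference of -0.91 (SE 0.30). IP signal was well above background at 12 of its 18 spots. EIF3B had -1.45, -1.38 and -1.09 against -0.64, -0.81 and -0.74, a difference of -0.58 (SE 0.21). CDH20 had -0.19, -0.30 and 0.31 against 0.37, 0.35 and 0.70 (-0.53, SE 0.24). Its groups too were separated by a narrow gap, between high-fertile bull 5 and subfertile bull 4. IQSEC1, an exchange factor for ARF GTPases, differed by -0.56 (SE 0.27).

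On the higher side, LPXN, a focal adhesion adaptor, had -0.14, 0.10 and 0.07 in the high-fertile and -0.18, -0.24 and -0.63 in the subfertile bulls, a difference of 0.36 (SE 0.22). The groups are separated by a narrow gap between high-fertile bull 2 and subfertile bull 1. PATZ1 differed by 0.40 (SE 0.25), BNIP3, a mitochondrial protein of mitophagy, by 0.33 (SE 0.22) and LMBR1, a membrane protein whose intron holds a limb enhancer, by 0.21 (SE 0.21), each with overlapping groups. All of these have an adjusted p of 0.9999 (limma).

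Scan session moved with the values of the distal probes. In a fit that also held the fertility group, 1059 distal probes (6.25%) were higher on the later dates and 99 (0.584%) lower, where 6.50% and 1.58% of all tested probes were called (limma, adjusted p under 0.05). The median difference was 0.35 over distal and 0.27 over all tested probes. With arrays centred on the tested probes the latter was 0.03, so these differences include an offset shared by the probes of an array. The session calls of windows and gene regions below are under the main centring only. Of the distal windows, 14 were higher on the later dates and none lower, against 27.1% and 2.33% of all windows. The largest difference was at chromosome 13, where the mean was 0.10 on the later dates and -0.42 in the first session (0.53, SE 0.13, adjusted p = 0.00622, limma).

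Of the 52 gene regions, 8 (15.4%) were higher on the later dates and none lower, against 14.0% and 6.79% of all regions. EPHA2 averaged 0.80 on the later dates and -0.25 in the first session (1.02, SE 0.18, adjusted p = 0.00949), TTC15 0.77 and -0.25, and TMC4, a transmembrane channel-like protein, 0.46 and -0.30 (limma). The calls of these 3 regions were lost without high-fertile bull 5, subfertile bull 1 or subfertile bull 4 (adjusted p = 0.0600 to 0.253, limma), and that of TMC4 also without subfertile bull 5. Lower on the later dates without passing the test were SLC2A11, a glucose transporter family member, with -0.50 and -0.04, RCC2 with -0.60 and -0.30 and LHX9, a homeobox factor of gonad formation, with -0.12 and 0.18. The count of higher distal probes depends on the centring: centred on the tested probes, 147 were higher and 109 lower. Of all tested probes, 1115 were higher and 1819 lower in that fit. When high-fertile bull 5, subfertile bull 1, subfertile bull 4 or subfertile bull 5 was left out, no probe was called. Without high-fertile bull 2 the numbers were 2708 and 284 of the distal and 15493 and 4825 of all tested probes.

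Bulls of the same session resembled each other more than bulls of different sessions in the distal windows as elsewhere. Relative levels of distal probes correlated at 0.32 to 0.77 between bulls of the same session and at 0.23 to 0.34 between sessions, and those of other probes at 0.34 to 0.80 and 0.11 to 0.28. Over the 26 distal windows the correlations were 0.83 to 0.98 within and 0.28 to 0.72 between sessions, and over the other windows 0.53 to 0.92 and -0.06 to 0.46. These are correlations across probes or windows of the same arrays and are given as a description. The later dates count as 1 session in them, and the part of the slide, which coincides in part with session, was not tested.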

How the data were processed

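Methylated DNA immunoprecipitation was measured on 6 2-colour arrays, 1 per bull. Per the file headers, the authors' scanner software (Feature Extraction 10.7.3.1) gave each spot's processed intensity after background detrending and linear dye normalisation, and a log10 ratio of Cy5 (IP) over Cy3 (input). The array of subfertile bull 1 names a CGH protocol in its header and the others a ChIP protocol. The deposited value table holds log2 values that equal the scanner's log ratio on a log2 scale within 1e-05. The genome build, strand and further processing are not given in the sources used here.

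From the processed intensities, log2(IP/input) was computed and centred on each array's median over non-control probes. Probes needed input well above background on all 6 arrays and no non-uniformity flag. A relative level was further centred on the tested autosomal probes. Levels, group and session differences were fitted with limma 3.58.1 in R 4.3.3 (2-sided, Benjamini-Hochberg over all probes, windows or regions, 0.05), and the code was tested on simulated data. Labels do not say how the bulls' samples were taken, so p-values measure the spread between 6 arrays, and the number of arrays limits precision.

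The members, lists and tests were chosen with earlier results of these data known. Named gene regions were the 8 highest and 8 lowest in level, up to 4 in each direction by the p of the group difference and up to 3 by that of the session difference. Named windows were the 4 highest and 4 lowest and up to 2 in each direction of the group difference. Single probes were chosen likewise (3 and 2), with IP above background on all arrays. A further low probe that this rule names is not reported here. Alternatives covered filters, centring, background correction, window and region sizes, session, slide and each bull left out. Symbols were matched to RefSeq's NDDB_SH_1 annotation for gene order only.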

Additional observations from a re-analysis of the deposited data

How the results depend on the processing

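The distal elevation over other probes kept its direction in all alternatives run for it, between 0.08 (normexp) and 0.20 (without high-fertile bull 3, and on the later dates alone). No distal window was called between the fertility groups under the alternatives run for windows. No distal gene region was called without the input filter, with a session block, with 2 or 5 probes per region or with a bull left out, the alternatives run for regions. Of 34 probes called on the later dates alone, 5 were distal, in a fit of 1 high-fertile against 2 subfertile bulls that says nothing of the groups. Distal windows called higher (8) numbered 0 with normexp, 5 with windows of 5 Mb, 0 in the first session and 17 on the later dates. They numbered 0 to 13 with a bull left out. The shares of all windows called higher were 0.155%, 3.47%, 0.465%, 21.4% and 0.31% to 8.22% in the same order, against 5.43% in the main fit. Distal windows called lower (1) numbered 0 without the input filter, with the IP filter, with normexp and in the first session. They numbered 5 on the later dates, 4 with session means, 2 with at least 50 probes and 0 to 2 with a bull left out. Of all windows, 63 were called lower in the main fit. The numbers in the other fits were 3, 19, 2, 1, 255, 132, 69 and 5 to 108 in the same order. Distal probes higher on the later dates (1059 of 16945) numbered 47 of 29945 without the input filter and 2198 of 9029 with the IP filter. They numbered 147 centred on tested probes, 5755 with normexp and 573 with the deposited log ratio. With a bull left out they numbered 0 to 2708, and within 1 Mb 412 of 7269. The counts within 1 and 5 Mb are from the main fit and differ only in the probes counted as distal. Of all 110686 tested probes, 7194 were higher in the main fit. The numbers were 371 of 176902 without the input filter, 14031 of 59797 with the IP filter, 1115 centred on tested probes and 30211 with normexp. They were 4203 with the deposited log ratio and 0 to 15493 with a bull left out. Distal probes lower on the later dates (99 of 16945) numbered 229 of 29945 without the input filter and 0 to 284 with a bull left out. Within 1 Mb they numbered 28 of 7269 and within 5 Mb 157 of 22583. Of all tested probes, 1747 were lower in the main fit, 2745 without the input filter and 0 to 4825 with a bull left out. Without the input filter the levels of the windows of chromosomes 24, 14, 1 and 27 turned to 0.060, 0.15, 0.11 and 0.064, the group difference of chromosome 14 to 0.077 and the level of RCC2 to 0.045. In the first session the level of chromosome 1 was 0.10. On the later dates the group differences of chromosomes 1, 14 and 19 were -0.018, 0.10 and 0.11. The cause was not tested for any of these. Of the values for named genes, windows and probes, 478 kept their direction and, where tested, their side of the threshold (untested probe levels moved by less than the spread between bulls), 53 became weaker, 15 stronger and 10 reversed. No paired analysis was possible because the labels pair no high-fertile bull with a subfertile bull. The number 5 is used in both groups and names a different bull in each. Signal over background limits the result: 56.6% of the distal probes on the array passed the input filter.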
